A study of Mus musculus with 12 samples.

Results

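Transcripts of 9 annexins and of S100a10 were followed in sorted fibroblasts of mouse back skin, from the unwounded state to the third day after a punch wound. The members were the rows of the deposited count table that carry the symbols Anxa1 to Anxa8, Anxa11 and S100a10, 10 of 25239 genes. All 10 passed the filter on low counts, which left 14901 genes to test. The cells came from wild type male C57BL/6 mice 8 weeks old. There were 4 groups of 3 mice each, with 1 library per mouse: unwounded skin (NW), and full-thickness excisional wounds made with a 4 mm punch and taken 16 h, 1.5 d or 3 d later. Skin was digested with liberase, and live cells that lacked CD45 and CD31 and carried SCA1 were sorted, so each library is a bulk population that the gate alone defines. Fibroblasts without surface SCA1 were not sorted.

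Annexins are cytosolic proteins that bind acidic phospholipids, above all phosphatidylserine, when calcium rises. They gather on the inner face of torn plasma membrane, where they help to close it, and they take part in endocytosis, secretion and the linking of membrane to actin. S100A10 is a small protein of the S100 family that pairs with annexin A2 to form a complex of both, which brings annexin A2 to the membrane and, at the cell surface, binds tissue plasminogen activator. Annexin A1 also leaves cells and acts on formyl peptide receptors of leukocytes, through which it limits inflammation, and annexin A5 binds the phosphatidylserine that dying cells expose. In skin, annexin A1, annexin A2 and annexin A8 are known from keratinocytes as well as from dermal cells.

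The libraries held 26389453 to 43493475 counted fragments. Below, a level is a TMM-normalised CPM (counts scaled to a common library total), and levels set between different genes are RPKM, the same value per kilobase of exon. Adjusted p-values are those of edgeR's quasi-likelihood fit, with the Benjamini-Hochberg method applied to all genes tested; below 0.05 a gene is said to be called, and SE is the approximate standard error of a log2 change. The sort left the marks of the gate: Ly6a, which encodes SCA1, stood between 869.7 and 2916 CPM in the 12 libraries, Ptprc (CD45) at no more than 8.71 CPM and Pecam1 (CD31) at no more than 3.98 CPM. All 8 fibroblast markers were found, and the 5 lymphocyte markers in the table summed to at most 0.738 CPM. The fibroblast markers summed to 83959 to 185585 CPM in NW and 38004 to 104038 CPM at 16 h. At 1.5 d they summed to 85082 to 106319 CPM and at 3 d to 116257 to 236012 CPM. Against NW, 1 rose and 3 fell at 16 h, 2 rose and 2 fell at 1.5 d, and 2 rose and 1 fell at 3 d. Of all genes, 24.7%, 24.5% and 21.1% were called at these times. Pdgfra rose and Cd34 fell at each time. Of 18 keratinocyte markers, 17 were in the table and none was at 0 in all libraries. Their summed level was 21281 to 38831 CPM in NW, 8915 to 16007 CPM at 16 h, 4479.5 to 7755 CPM at 1.5 d and 999.8 to 13989 CPM at 3 d, so that the NW libraries lay above all wound libraries. Markers of endothelium summed to 8.86 to 57.4 CPM in the wounds and 68.5 to 110.1 CPM in NW, most of it from Tek, which stood at 5.97 to 43.1 CPM in the wounds and 56.9 to 98.6 CPM in NW. The neutrophil list summed to 50.4 to 248 CPM in the wounds and 431 to 709 CPM in NW, nearly all of it Il1r2, at 49.0 to 239 CPM in the wounds and 430.3 to 706 CPM in NW. Of the 7 neutrophil markers tested, Il1r2 fell at each wound time, Cxcr2, Csf3r, S100a8 and S100a9 rose at 16 h, the same without S100a8 at 1.5 d and Cxcr2 alone at 3 d, while the defining members Ly6g and Ngp were under 1 CPM throughout. Of 12 macrophage markers, 6 rose at each wound time and 1, Csf1r, fell at 16 h; their sum was 57.0 to 122 CPM in the wounds and 50.9 to 115 CPM in NW. Pericyte markers summed to 17.6 to 36.4 CPM at 16 h, 22.5 to 36.3 CPM at 1.5 d and 50.3 to 104 CPM at 3 d, against 52.7 to 98.5 CPM in NW, and adipocyte markers to at most 1.22 CPM in the wounds and 9.73 to 12.3 CPM in NW.

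Per length, Anxa2 and Anxa1 were the most abundant members in all 4 groups. Anxa2 averaged 1819 ± 532 RPKM in NW libraries, 1422 ± 137 RPKM in 16 h libraries, 2077 ± 655 RPKM in 1.5 d libraries and 1783 ± 277 RPKM in 3 d libraries (SD, n = 3 in each group, as for all values given with ±). Anxa1 followed with 1652 ± 485 RPKM in NW, 783 ± 161 RPKM at 16 h, 1109.9 ± 342 RPKM at 1.5 d and 1228 ± 319 RPKM at 3 d. The ranges of this pair overlapped in NW and at 3 d and were apart at 16 h and 1.5 d, where Anxa2 was higher.

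Below that pair the order of RPKM levels was not the same in wounds as in unwounded skin. At 3 d it ran Anxa5 (725 ± 16.5 RPKM), S100a10 (424 ± 199.6), Anxa6 (170.4 ± 33.4), Anxa3 (68.9 ± 5.37), Anxa4 (59.6 ± 5.85), Anxa8 (58.8 ± 38.8), Anxa7 (36.6 ± 6.10) and Anxa11 (4.19 ± 1.36). Here Anxa3, Anxa4 and Anxa8 each overlapped the next in line, and the other neighbours were apart in all 3 libraries. In NW it ran S100a10 (824 ± 324 RPKM), Anxa8 (504 ± 186), Anxa5 (494 ± 88.6), Anxa3 (179.5 ± 23.4), Anxa4 (105 ± 15), Anxa7 (76.1 ± 14.6), Anxa6 (56.8 ± 12.4) and Anxa11 (4.76 ± 0.739). Within this NW order S100a10 overlapped Anxa8, Anxa8 overlapped Anxa5, Anxa4 overlapped Anxa7 and Anxa7 overlapped Anxa6, while the other neighbours were apart in all 3 libraries. Anxa6 thus stood at rank 5 of the 10 members at 1.5 d and 3 d, against rank 9 in NW, and Anxa8 at rank 8 at 3 d, against rank 4 in NW.

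**Figure D1:**
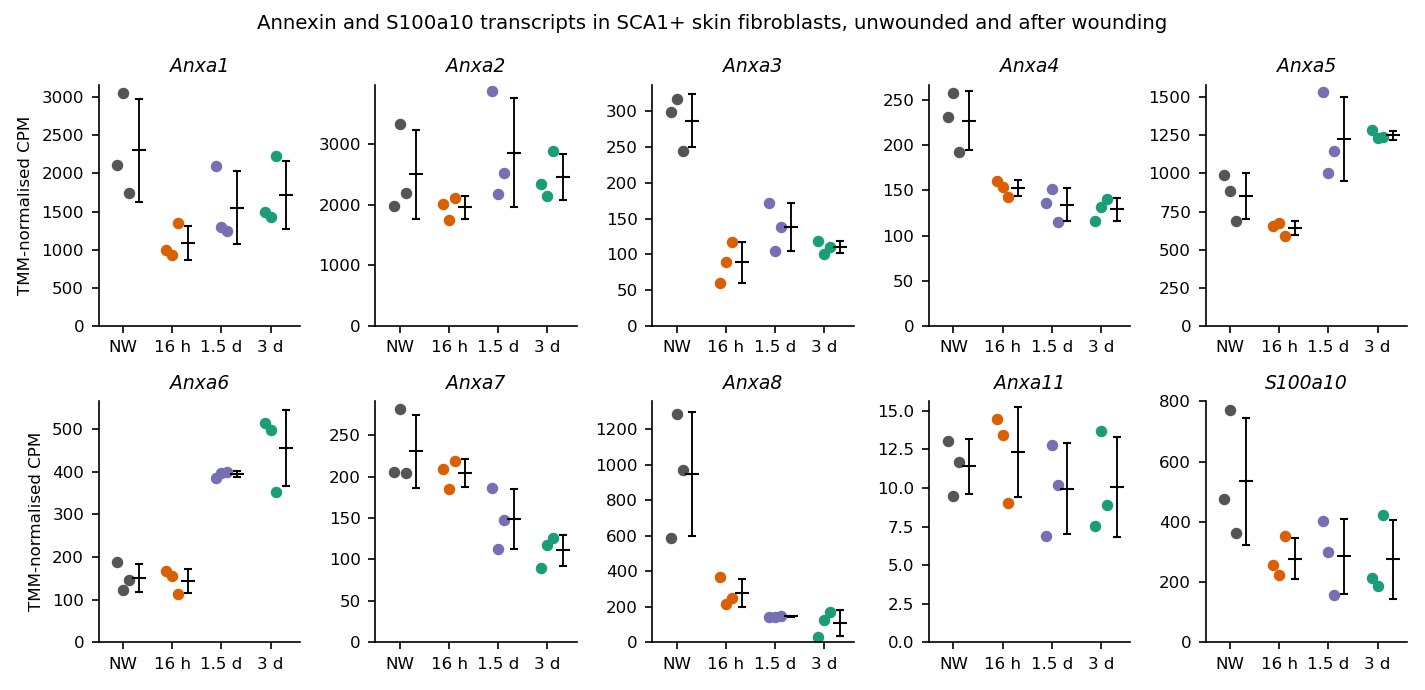
TMM-normalised CPM of each member (vertical axes, linear from 0, 1 panel per gene) in the 3 libraries of NW, 16 h, 1.5 d and 3 d (horizontal axes); points are libraries, and the bar beside them is the mean with its SD. Anxa8, Anxa3 and Anxa4 lie below NW at all 3 wound times, and Anxa6 lies above NW at 1.5 d and 3 d.

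Over the 4 groups 6 of the 10 members differed by the edgeR F test, beside 29.7% of all genes tested: Anxa3, Anxa4, Anxa5, Anxa6, Anxa7 and Anxa8. At 16 h against NW 4 members fell (Anxa1, Anxa3, Anxa4 and Anxa8), where 11.2% of all genes were called lower and 24.7% in either direction. In the other direction, where 13.5% of all genes were called higher, edgeR and DESeq2 called 0 members and 0 had an unadjusted edgeR p under 0.05. At 1.5 d against NW Anxa6 rose and Anxa3, Anxa4 and Anxa8 fell, where 13.7% of all genes were called higher, 10.8% lower and 24.5% in all. At 3 d against NW Anxa6 rose and Anxa3, Anxa4, Anxa7 and Anxa8 fell, where 12% of all genes were called higher, 9.15% lower and 21.1% in all. The median log2 change of the 10 members was -0.49 at 16 h, -0.60 at 1.5 d and -0.62 at 3 d against NW, and over all genes tested it was -0.04, 0.01 and 0.00. These 3 comparisons share the NW libraries.

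Between wound times fewer genes moved. At 1.5 d against 16 h Anxa5 and Anxa6 rose, where 2.39% of all genes were called higher and 2.86% in all. At 3 d against 16 h Anxa5 and Anxa6 rose and Anxa7 fell, where 5.86% of all genes were called higher, 3.67% lower and 9.53% in all. At 3 d against 1.5 d 0 members were called by edgeR or by DESeq2, and 0 had an unadjusted edgeR p under 0.05. Of all genes, 0.141% were called there, 0.101% higher and 0.0403% lower.

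**Figure D2:**
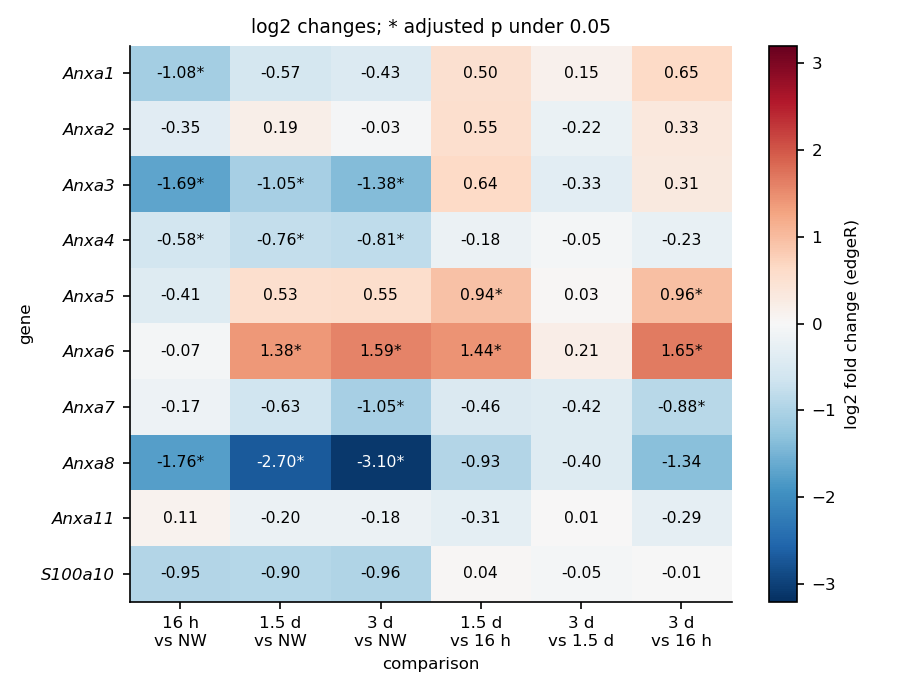
Heat map of log2 fold changes from the edgeR fit, with the 10 members as rows and the 6 comparisons of groups as columns; red is higher and blue is lower in the later or wounded group, and an asterisk marks an adjusted p under 0.05. Anxa8 has the darkest blue cells (-1.76, -2.70 and -3.10 against NW) and Anxa6 the darkest red (1.65 at 3 d against 16 h).

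The promoters of Anxa2, Anxa1 and Anxa8 are shown here because the first pair are the most abundant members and the third changed most. The sequences are from RefSeq on GRCm38.p6, the same build as mm10, which had a promoter for 7 of the 10 members (Anxa1, Anxa2, Anxa4, Anxa5, Anxa7, Anxa8 and Anxa11). Each is the 250 bases before the annotated start, 5′ to 3′ on the strand of the gene, and capitals mark every match to one of 5 motifs on either strand.
Anxa2 promoter, chr9:69453433-69453682, plus strand: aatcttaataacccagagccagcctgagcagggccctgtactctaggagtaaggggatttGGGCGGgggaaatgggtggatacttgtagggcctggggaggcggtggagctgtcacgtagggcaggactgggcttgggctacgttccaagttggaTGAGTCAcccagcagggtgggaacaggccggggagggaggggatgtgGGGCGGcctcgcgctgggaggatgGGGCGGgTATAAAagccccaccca
Anxa1 promoter, chr19:20390672-20390921, minus strand: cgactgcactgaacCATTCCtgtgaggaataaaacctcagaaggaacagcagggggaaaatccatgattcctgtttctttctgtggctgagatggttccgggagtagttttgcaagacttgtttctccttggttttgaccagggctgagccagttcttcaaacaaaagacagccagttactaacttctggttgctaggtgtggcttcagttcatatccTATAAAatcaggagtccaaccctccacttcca
Anxa8 promoter, chr14:34085729-34085978, plus strand: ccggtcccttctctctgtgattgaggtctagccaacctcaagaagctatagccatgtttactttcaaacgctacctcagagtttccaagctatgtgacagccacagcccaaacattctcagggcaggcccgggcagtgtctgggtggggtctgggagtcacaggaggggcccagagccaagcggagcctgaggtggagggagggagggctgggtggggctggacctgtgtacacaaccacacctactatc
The motifs searched were the AP-1 site TGANTCA, the GC box GGGCGG, the TATA box TATAAA, the TEAD site GGAATG and the palindromic glucocorticoid response element, and the matches found do not overlap each other. Of 32851 mouse promoters of the same length, 6.75% held the AP-1 letters, 32.7% the GC box, 12.4% the TATA box, 12.6% the TEAD letters and 0.00913% the glucocorticoid element. In Anxa2 the capitals are an AP-1 match 95 to 89 bases before the start, GC boxes 190 to 185, 48 to 43 and 24 to 19 bases before it, and TATAAA 17 to 12 bases before it. In Anxa1 they are a reverse TEAD match (CATTCC) 236 to 231 bases before the start and TATAAA 32 to 27 bases before it. Anxa8 held none of these letters in this window, and neither did Anxa5 or either promoter of Anxa4. Anxa7 and Anxa11 held GC boxes alone. A match describes letters and is no evidence of binding.

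Anxa8, known from stratified epithelium, had the largest log2 change of the 10 members (mm10 chr14:34085979-34100568, plus strand). Replicates 1 to 3 held 586, 1285 and 969 CPM in NW, 369, 217 and 249.8 CPM at 16 h, 144, 144 and 150.3 CPM at 1.5 d, and 30.6, 127 and 174 CPM at 3 d. All 9 wound libraries lay below all 3 NW libraries, and all 1.5 d and 3 d libraries lay below those of 16 h. Anxa8 was 3.40-fold lower at 16 h than in NW (log2 change -1.76, SE 0.478, edgeR adjusted p = 0.0174). It was 6.48-fold lower at 1.5 d (-2.70, SE 0.495, edgeR adjusted p = 0.00204) and 8.57-fold lower at 3 d (-3.10, SE 0.504, edgeR adjusted p = 0.00113). The 16 h call was lost when replicate 2 or replicate 3 of 16 h or replicate 2 of NW was left out, at edgeR adjusted p = 0.0741, 0.0548 and 0.061.

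The keratinocyte marker sum, like Anxa8, was higher in every NW library than in any wound library. Within NW, within 16 h and within 3 d the libraries ran in the same order for both, and within 1.5 d they did not. Among wound libraries the sum did not always follow Anxa8. It averaged 6327 CPM at 1.5 d and 8183 CPM at 3 d, where Anxa8 averaged 146 and 110 CPM. Replicate 3 of 3 d held 13989 CPM of the markers, against 8915 and 9692 CPM in replicates 2 and 3 of 16 h, and had less Anxa8 than either. Of 17 keratinocyte markers tested, 4 fell at 16 h against NW, 12 at 1.5 d and 10 at 3 d, and 1, the wound keratin Krt6a, rose at each time. Krt5, a keratin of basal keratinocytes, averaged 5128 ± 1477 CPM in NW, 2026 ± 538 CPM at 16 h, 1212 ± 365 CPM at 1.5 d and 1239.7 ± 1049 CPM at 3 d. Replicate 1 of 3 d was the lowest of the 12 libraries both for the summed markers, at 999.8 CPM, and for Anxa8, and replicate 2 of NW was the highest for both, at 38831 CPM for the markers. The bulk libraries cannot tell fewer cells of a type from less RNA per cell. With the keratinocyte marker level of each library as a covariate, the log2 change of Anxa8 against NW was smaller. It was -0.81 at 16 h (edgeR adjusted p = 0.0468), -1.12 at 1.5 d (0.0456) and -1.70 at 3 d (0.0101). The marker sum of NW did not overlap that of the wounds, so for no member can this fit separate marker level from wounding in a comparison with NW.

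**Figure D3:**
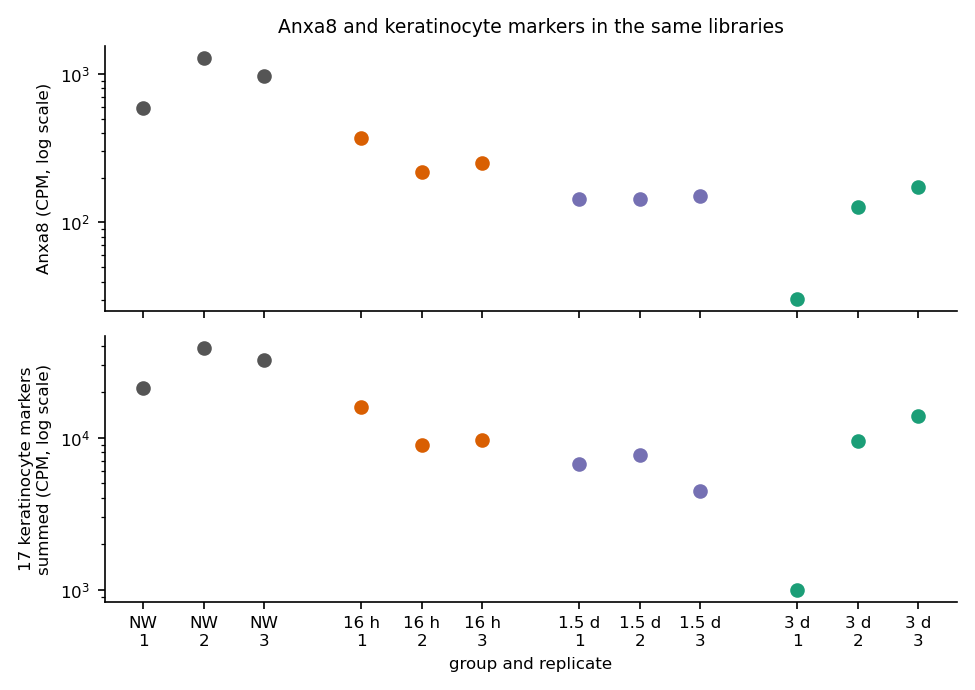
Anxa8 (upper panel) and the sum of 17 keratinocyte markers (lower panel), both in TMM-normalised CPM on log axes, in each of the 12 libraries, ordered by group and replicate. Both are highest in NW replicate 2 and lowest in 3 d replicate 1, at 30.6 CPM for Anxa8 and 999.8 CPM for the markers.

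Anxa6, the largest annexin, with a doubled set of repeats, that links late endosomes and cholesterol-rich membrane to actin, was the member that rose against NW (mm10 chr11:54978953-55033471, minus strand). It held 188, 122 and 145 CPM in NW, 166, 155 and 113 CPM at 16 h, 386, 398 and 399 CPM at 1.5 d, and 515, 498 and 353 CPM at 3 d. NW and 16 h overlapped, and every 1.5 d and 3 d library lay above every library of both earlier groups. Anxa6 was 2.60-fold higher at 1.5 d than in NW (log2 change 1.38, SE 0.228, edgeR adjusted p = 0.00114) and 3.00-fold higher at 3 d (1.59, SE 0.230, edgeR adjusted p = 0.000535). It was 2.72-fold higher at 1.5 d than at 16 h (1.44, SE 0.229, edgeR adjusted p = 0.00651) and 3.14-fold higher at 3 d than at 16 h (1.65, SE 0.230, edgeR adjusted p = 0.000841). At 16 h against NW its log2 change was -0.07 (edgeR adjusted p = 0.864). All 4 of these calls held when any 1 library was left out. With the keratinocyte covariate they held at smaller log2 changes. Against NW these were 1.16 at 1.5 d and 1.33 at 3 d (edgeR adjusted p = 0.0454 and 0.0296). Against 16 h they were 1.36 at 1.5 d and 1.53 at 3 d (edgeR adjusted p = 0.0157 and 0.00285).

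Anxa5, whose protein binds the phosphatidylserine that dying cells expose, had its lowest mean at 16 h and higher means later (mm10 chr3:36448924-36475887, minus strand). It held 986, 882 and 686 CPM in NW, 658, 675 and 592 CPM at 16 h, 1536, 999.7 and 1144.5 CPM at 1.5 d, and 1282, 1229.6 and 1238 CPM at 3 d. The 16 h libraries were the lowest 3 of the 12, and the 1.5 d and 3 d libraries were all above NW, by as little as 999.7 against 986 CPM. Anxa5 was 1.91-fold higher at 1.5 d than at 16 h (log2 change 0.94, SE 0.213, edgeR adjusted p = 0.0338) and 1.95-fold higher at 3 d than at 16 h (0.96, SE 0.213, edgeR adjusted p = 0.013). Against NW its log2 changes were -0.41 at 16 h, 0.53 at 1.5 d and 0.55 at 3 d, and none passed (edgeR adjusted p = 0.177, 0.0866 and 0.0797). DESeq2 called it higher than in NW at 1.5 d (adjusted p = 0.0412) and 3 d (adjusted p = 0.025). Leaving out replicate 1 of 1.5 d also brought the 3 d change against NW to an edgeR adjusted p of 0.0487.

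The rise of Anxa5 at 1.5 d over 16 h was the less stable of its calls. It was lost when replicate 1, 2 or 3 of 16 h was left out (edgeR adjusted p = 0.109, 0.116 and 0.107), without replicate 1 or 3 of 1.5 d (0.0979 and 0.0727) and without replicate 2 of 3 d (0.0509). With the keratinocyte covariate its log2 change was 0.91 and did not pass (edgeR adjusted p = 0.068), nor did the F test (0.0515). The rise at 3 d over 16 h was lost only when replicate 3 of 16 h was left out (edgeR adjusted p = 0.0526).

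Anxa2, which with S100a10 forms the complex described above, did not pass in any comparison (edgeR F test adjusted p = 0.423; mm10 chr9:69453683-69491785, plus strand). It held 1973, 3333 and 2191 CPM in NW, 2015, 1743 and 2103 CPM at 16 h, 3872, 2167 and 2523 CPM at 1.5 d, and 2334, 2142 and 2876 CPM at 3 d. NW overlapped each wound group, and 1.5 d and 3 d overlapped each other. The 16 h libraries all lay below those of 1.5 d and 3 d, by as little as 2103 against 2142 CPM. The widest spread was within 1.5 d. Its log2 change against NW was -0.35 at 16 h, 0.19 at 1.5 d and -0.03 at 3 d (edgeR adjusted p = 0.363, 0.65 and 0.957). The sign at 1.5 d turned to -0.09 without replicate 1 of that time.

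S100a10 was lower on average in every wound group and was not called (edgeR F test adjusted p = 0.142; mm10 chr3:93555117-93564645, plus strand). It held 475, 769.6 and 361 CPM in NW, 257, 224 and 353 CPM at 16 h, 404, 298 and 156 CPM at 1.5 d, and 215, 187 and 424 CPM at 3 d. The 16 h libraries lay below NW, while 1.5 d and 3 d each had 1 library within the NW range. Its log2 change against NW was -0.95 at 16 h, -0.90 at 1.5 d and -0.96 at 3 d (SE 0.398, 0.397 and 0.398; edgeR adjusted p = 0.101, 0.116 and 0.105). DESeq2 called it at 16 h (adjusted p = 0.0482), and without replicate 3 of 3 d the 3 d change was -1.41 (edgeR adjusted p = 0.0323).

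The ratio of Anxa2 to S100a10 RPKM was set out in each library as a description, without a test. It was 1.97, 2.05 and 2.87 in NW libraries, 3.71, 3.68 and 2.82 in those of 16 h, 4.54, 3.44 and 7.66 in those of 1.5 d, and 5.13, 5.43 and 3.21 in those of 3 d. The 1.5 d and 3 d ratios all lay above NW, and replicate 3 of 16 h lay inside the NW range. The mean ratio was 2.29 ± 0.498 in NW, then 3.40 ± 0.506 at 16 h, 5.21 ± 2.19 at 1.5 d and finally 4.59 ± 1.21 at 3 d. The highest ratio, in replicate 3 of 1.5 d, was in the library with the lowest S100a10, 156 CPM.

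**Figure D4:**
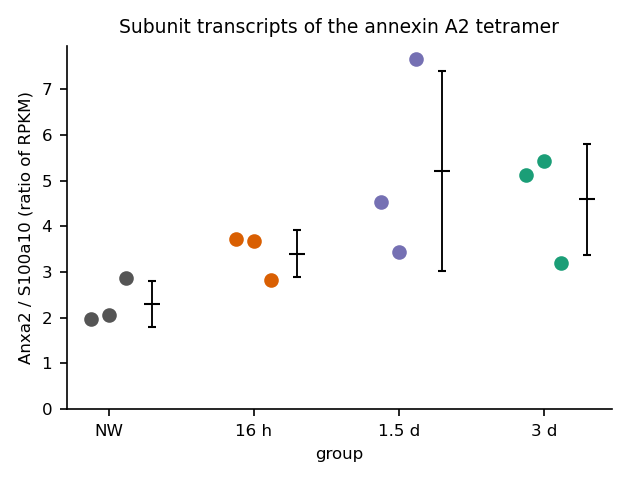
Ratio of Anxa2 to S100a10 transcripts per length (vertical axis, ratio of RPKM, linear from 0) by group (horizontal axis); points are libraries, and the bar beside them is the mean with its SD. The 6 libraries of 1.5 d and 3 d lie between 3.21 and 7.66, above the 3 NW libraries at 1.97 to 2.87.

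Anxa1, the regulator of inflammation, had its lowest mean at 16 h (mm10 chr19:20373434-20390671, minus strand). It held 2109, 3057 and 1747 CPM in NW, 991, 936 and 1349.6 CPM at 16 h, 2099, 1294 and 1251 CPM at 1.5 d, and 1488, 1424 and 2225 CPM at 3 d. The 16 h libraries all lay below NW, and those of 1.5 d and 3 d overlapped it. Anxa1 was 2.11-fold lower at 16 h than in NW (log2 change -1.08, SE 0.295, edgeR adjusted p = 0.0181). Its changes of -0.57 at 1.5 d and -0.43 at 3 d did not pass (edgeR adjusted p = 0.174 and 0.332), nor did the F test over the groups (edgeR adjusted p = 0.0648). DESeq2 (adjusted p = 0.00954), edgeR without the filter on low counts (0.0486) and edgeR without replicate 1 of 1.5 d (0.0302) called the difference among groups. The 16 h call was lost without replicate 1 or 2 of 16 h (edgeR adjusted p = 0.0654 and 0.0806), and without replicate 2 of NW (0.0752). With the keratinocyte covariate the 16 h change was -0.91 and did not pass (edgeR adjusted p = 0.0878).

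Anxa3 was lower at all 3 wound times (mm10 chr5:96793385-96845968, plus strand); it is known in other settings from endothelial migration and from neutrophils. It held 298, 317 and 245 CPM in NW, 59.7, 89.4 and 117 CPM at 16 h, 172, 104 and 138 CPM at 1.5 d, and 118, 101 and 111 CPM at 3 d. All 9 wound libraries lay below the lowest NW library. Anxa3 was 3.23-fold lower at 16 h (log2 change -1.69, SE 0.259, edgeR adjusted p = 0.000631), 2.08-fold lower at 1.5 d (-1.05, SE 0.255, edgeR adjusted p = 0.00956) and 2.61-fold lower at 3 d (-1.38, SE 0.257, edgeR adjusted p = 0.00249). These calls held without any 1 library. With the keratinocyte covariate the 16 h and 3 d calls held, and the 1.5 d log2 change was -1.24 and did not pass (edgeR adjusted p = 0.0582). The endothelial marker sum was lower in the wounds too and neutrophil markers moved in both directions, as given above, and the part of either in the result was not tested.

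Anxa4, found beneath the membranes of secretory epithelia, was lower in wounds by a smaller step (mm10 chr6:86736840-86793584, minus strand). It held 231, 258 and 193 CPM in NW, 160.1, 154 and 142 CPM at 16 h, 136, 152 and 115 CPM at 1.5 d, and 116, 132 and 141 CPM at 3 d. All wound libraries lay below NW, those of 3 d also lay below those of 16 h, and the 1.5 d group overlapped both. Anxa4 was 1.49-fold lower at 16 h (log2 change -0.58, SE 0.184, edgeR adjusted p = 0.0347), 1.69-fold lower at 1.5 d (-0.76, SE 0.184, edgeR adjusted p = 0.00952) and 1.76-fold lower at 3 d (-0.81, SE 0.184, edgeR adjusted p = 0.00763). With the keratinocyte covariate the log2 changes were -0.46, -0.57 and -0.60 and none passed (edgeR adjusted p = 0.174, 0.217 and 0.28), nor did the F test (0.337).

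The Anxa4 call at 16 h also rested on single libraries. It was lost without replicate 1, 2 or 3 of 16 h (edgeR adjusted p = 0.0741, 0.101 and 0.0986), replicate 1 or 2 of NW (0.103 and 0.115) and replicate 1 or 2 of 3 d (0.0633 and 0.0599). It was lost as well with total-count scaling (edgeR adjusted p = 0.0715) and without the filter on low counts (0.0549). The 1.5 d call was lost without replicate 3 of 1.5 d (edgeR adjusted p = 0.0525), the 3 d call without replicate 1 of 3 d (0.0517) and the F test call without replicate 1 or 2 of NW (0.0516 and 0.0622).

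Anxa7, a membrane-fusing annexin that binds the calcium sensor sorcin, was lower at 3 d (mm10 chr14:20455261-20480133, minus strand). It held 206, 281 and 205 CPM in NW, 209, 185 and 219 CPM at 16 h, 186, 113 and 147 CPM at 1.5 d, and 90.2, 117 and 126 CPM at 3 d. The 3 d libraries lay below all those of NW and 16 h, and the 1.5 d group overlapped both wound times around it. Anxa7 was 2.08-fold lower at 3 d than in NW (log2 change -1.05, SE 0.226, edgeR adjusted p = 0.00564) and 1.84-fold lower at 3 d than at 16 h (-0.88, SE 0.225, edgeR adjusted p = 0.0275). Its changes of -0.17 at 16 h and -0.63 at 1.5 d against NW did not pass (edgeR adjusted p = 0.613 and 0.0569). DESeq2 (adjusted p = 0.0203), edgeR with DESeq2 size factors (0.0459) and a fit without replicate 1 of 1.5 d (edgeR adjusted p = 0.0277) called the 1.5 d change.

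The fall of Anxa7 at 3 d against NW held without any 1 library. With the keratinocyte covariate it was -0.75 on the log2 scale and did not pass (edgeR adjusted p = 0.251), nor did the F test (0.193). The fall at 3 d against 16 h was lost without replicate 1, 2 or 3 of 16 h (edgeR adjusted p = 0.0802, 0.0608 and 0.0776), and without replicate 1 or 2 of 3 d (0.0937 and 0.0598). With that covariate it was -0.75 as well and did not pass (edgeR adjusted p = 0.0826).

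Anxa11, an annexin that tethers RNA granules to lysosomes, stood at 6.90 to 14.5 CPM in the 12 libraries, 185 to 520 counts, and did not pass (edgeR F test adjusted p = 0.836; mm10 chr14:25842155-25886804, plus strand). Of its 2395 exon bases, 1392 (58.1%) lie in exons that the annotation also gives to Gm2260 and Gm2274, both at 0 counts in every library. Fragments there had more than one gene and were not counted, so the level printed is too low and its place in the order of members is uncertain. No other member shared exon bases with another gene of the annotation used.

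As a share of the summed RPKM of the 9 annexins, Anxa2 took 37.0% ± 2.89 in NW, then 47.7% ± 0.963 at 16 h, 47.7% ± 2.28 at 1.5 d and finally 43.1% ± 0.995 at 3 d. Anxa5 had a share of 10.4% ± 2.71 in NW, of 12.6% ± 1.94 at 16 h, of 16.6% ± 0.836 at 1.5 d and of 17.8% ± 2.46 at 3 d. Anxa8 made up 4.98% ± 1.36, 1.88% ± 0.464 and 1.39% ± 0.839 at 16 h, 1.5 d and 3 d, against 10.2% ± 2.65 in NW. Anxa6 made up 1.85% ± 0.466, 3.57% ± 0.908 and 4.24% ± 1.30 at those times, against 1.23% ± 0.465 in NW. Shares sum to a whole within a library, so a fall of 1 member lifts the others. The sum itself was 4129.5 to 6273 RPKM in NW, 2699 to 3232 RPKM at 16 h, 3488 to 5669.96 RPKM at 1.5 d and 3716 to 4810.1 RPKM at 3 d, and the 16 h libraries lay below all others.

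**Figure D5:**
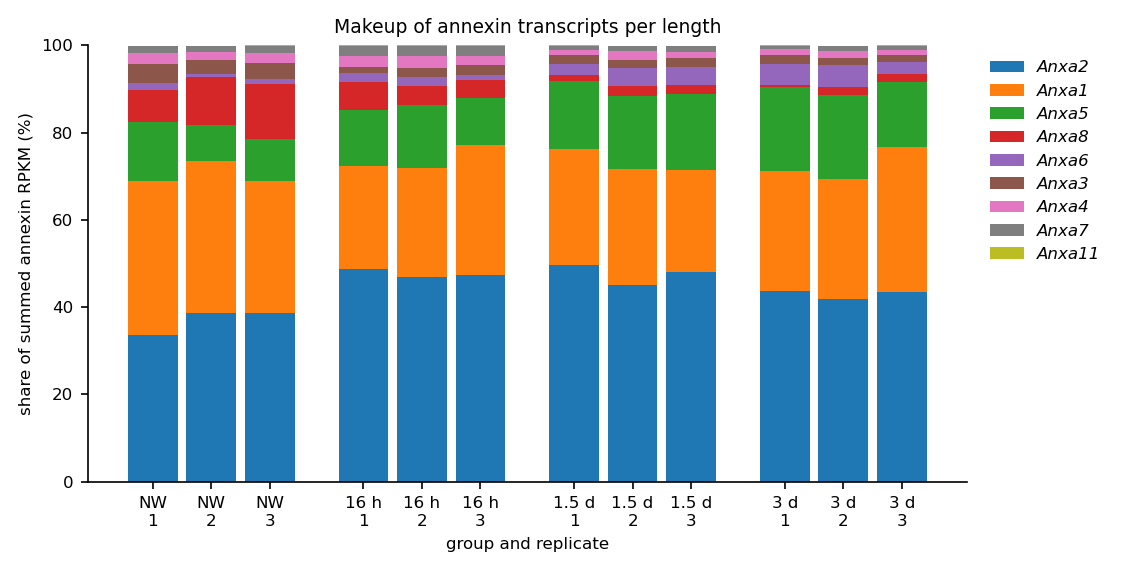
Stacked bars of each annexin as a percent of the summed RPKM of the 9 annexins (vertical axis, from 0) in each of the 12 libraries (horizontal axis, by group and replicate). Anxa2 and Anxa1 fill most of each bar, Anxa8 thins in the wound libraries and Anxa5 and Anxa6 widen at 1.5 d and 3 d.

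Likeness of pattern was measured as the distance between the 4 group means of log2 CPM, each gene centred on its own mean, over the 8682 tested genes that averaged 10 CPM or more. Among members the closest pair was Anxa4 and S100a10 (0.23), then Anxa4 and Anxa7 (0.47) and Anxa2 and Anxa5 (0.52), and the farthest was Anxa6 and Anxa8 (3.89). The nearest genes were Epn3 (0.14) and Tnfrsf19 (0.19) to Anxa8, against a median distance of 2.63 over all the genes searched. They were Arhgap31 and Tedc1 (0.18 each, median 1.68) to Anxa6, Fam124a and Pid1 (0.15 each, median 1.51) to Anxa3, and Ppm1m (0.06) and Ost4 (0.07, median 1.09) to Anxa5. Gabarapl2 (0.02) and Zfp651 (0.04, median 0.97) were nearest to Anxa4, and Cyb561 (0.04) and Mid1ip1 (0.07, median 1.07) to Anxa7. The 4 points of a pattern come from the same 12 libraries for every gene, and no test was made. The nearest of so many genes must lie below the median distance, so that gap is no measure of special likeness. The patterns were not scaled, so the distance also depends on the size of the changes.

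Of the other annexins in the table, Anxa9 had 0 to 82 counts in a library and did not pass (edgeR F test adjusted p = 0.561), Anxa10 had 0 counts in all libraries and Anxa13 had at most 5. Among 15 other S100 genes, 11 could be tested. Of these 11, 2 rose and 3 fell at 16 h against NW, 1 rose and 1 fell at 1.5 d, and 1 fell at 3 d, with a median log2 change of -0.77, -0.52 and -0.34; of all genes, 24.7%, 24.5% and 21.1% were called at these times. S100a14, an epithelial S100 gene, averaged 24.7 ± 8.62 CPM at 16 h, 15.8 ± 8.80 at 1.5 d and 17.3 ± 17.1 at 3 d, against 137 ± 70.0 CPM in NW, and was lower at each time (edgeR adjusted p = 0.028, 0.0104 and 0.0145). S100a1, best known from striated muscle, averaged 5.71 ± 1.34 CPM at 16 h against 25.0 ± 9.17 CPM in NW (edgeR adjusted p = 0.00601), and S100b was the other gene that fell then. S100a9 and S100a8, the calprotectin subunits of neutrophils and stressed keratinocytes, rose at 16 h to 3.08 ± 1.09 and 2.12 ± 0.884 CPM, against 0.0763 ± 0.132 and 0.126 ± 0.189 CPM in NW (edgeR adjusted p = 0.00945 and 0.0392). S100a9 was also higher at 1.5 d (1.37 ± 0.348 CPM, edgeR adjusted p = 0.0263).

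Of 9 ligand and receptor partners of annexin A1 and annexin A2 tested among 11 considered, 3 rose and 1 fell at 16 h against NW, 3 rose and 1 fell at 1.5 d, and 2 rose and 1 fell at 3 d, beside the same 24.7%, 24.5% and 21.1% of all genes, with a median log2 change of 1.04, 1.57 and 0.89. Plat, the tissue plasminogen activator, averaged 815 ± 158 CPM at 16 h, 1329 ± 295 at 1.5 d and 1151 ± 257 at 3 d, against 395 ± 75.6 CPM in NW (edgeR adjusted p = 0.00945, 0.000539 and 0.00123). Plaur, the urokinase receptor, averaged 285 ± 49.9, 302 ± 129 and 233 ± 30.6 CPM at those times, against 101 ± 36.3 CPM in NW (edgeR adjusted p = 0.00541, 0.00402 and 0.0184). Plau, the urokinase gene, averaged 35.9 ± 1.32 CPM at 16 h, 29.2 ± 5.44 CPM at 1.5 d and 13.8 ± 4.67 CPM at 3 d, against 7.43 ± 5.40 CPM in NW, and rose at 16 h and 1.5 d while the 3 d difference did not pass (edgeR adjusted p = 0.00576, 0.0116 and 0.215). Tlr2, a receptor of innate immunity, was the gene that fell, to 12.4 ± 3.29, 15.9 ± 1.44 and 15.2 ± 3.92 CPM, against 54.9 ± 27.1 CPM in NW (edgeR adjusted p = 0.00101, 0.00281 and 0.00267). Fpr2, the receptor of annexin A1, reached at most 2.88 CPM in any library.

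All 16 listed genes that move lipids across the membrane or take part in recognising phosphatidylserine could be tested. Of these, 4 rose and 3 fell at 16 h against NW, 3 rose and 2 fell at 1.5 d, and 5 rose at 3 d, where 24.7%, 24.5% and 21.1% of all genes were called, with a median log2 change of 0.33, 0.22 and 0.33. Besides those given below, the scramblase family gene Plscr1 rose at 16 h and 3 d, and Plscr4 and the receptor Mertk fell at 16 h and 1.5 d. Ano6, the calcium-gated lipid scramblase, averaged 477 ± 156 CPM at 16 h, 369 ± 91.2 at 1.5 d and 330.4 ± 98.0 at 3 d, against 153 ± 49.4 CPM in NW (edgeR adjusted p = 0.00374, 0.0139 and 0.0297). Atp8b1, a flippase subunit, averaged 108 ± 21.2, 88.3 ± 17.1 and 85 ± 20.9 CPM, against 37.7 ± 12.9 CPM in NW (edgeR adjusted p = 0.00253, 0.00775 and 0.0116). Pros1, the bridging ligand protein S, averaged 662 ± 135, 738 ± 121 and 641 ± 137 CPM, against 247 ± 90.5 CPM in NW (edgeR adjusted p = 0.00369, 0.00203 and 0.00501). Mfge8, another bridging protein, had, like Anxa5, its lowest mean at 16 h: it averaged 98.4 ± 6.04 CPM at 16 h and 270.2 ± 32 CPM at 3 d, against 163 ± 54.9 CPM in NW (edgeR adjusted p = 0.04 and 0.0465).

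Of 29 listed membrane repair genes other than annexins, 27 could be tested. Beside the 24.7%, 24.5% and 21.1% of all genes called at the 3 times, 3 of the 27 rose and 2 fell at 16 h against NW, 3 rose and 5 fell at 1.5 d, and 4 rose and 3 fell at 3 d, with a median log2 change of -0.02, -0.04 and -0.21. Besides those given below, Ehd1 rose at 16 h, Snap23 at 1.5 d and 3 d and Myof at 3 d, while Ahnak and Ehd4 fell at 1.5 d, Chmp4c at 1.5 d and 3 d and Stx4a at 3 d. Cav1, the main caveolar protein, averaged 673 ± 75.7 CPM at 16 h, 907 ± 77.7 at 1.5 d and 674.5 ± 178 at 3 d, against 254 ± 17 CPM in NW (edgeR adjusted p = 0.000586, 0.000123 and 0.000715). Cavin2, which shapes caveolae, averaged 1.89 ± 0.898 CPM at 16 h and 12.4 ± 4.83 CPM at 1.5 d, against 33.7 ± 1.26 CPM in NW (edgeR adjusted p = 3.44e-05 and 0.0122). At 3 d Cavin2 averaged 21.5 ± 2.60 CPM, and the difference from NW did not pass (edgeR adjusted p = 0.223). It was higher at 1.5 d than at 16 h (edgeR adjusted p = 0.00391). Capn2, a calcium-activated protease, averaged 443 ± 66.1, 437 ± 86.7 and 519.5 ± 87.7 CPM at the 3 wound times, against 220.3 ± 26.4 CPM in NW (edgeR adjusted p = 0.00492, 0.00558 and 0.00177). Chmp2b, an ESCRT-III subunit, averaged 53.6 ± 9.80, 30.8 ± 6.68 and 44.2 ± 7.70 CPM, against 88.2 ± 14 CPM in NW (edgeR adjusted p = 0.0415, 0.000875 and 0.0105).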

How the data were processed

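RNA from live CD45-, CD31-, SCA1+ sorted cells was made into cDNA with SMART-Seq v4 and into Nextera XT libraries, which keep no strand, per the labels' protocols. The authors deposited raw counts of fragments per gene symbol, without normalization; per the file headers, featureCounts 2.0.0 counted read pairs over exons of an mm10 refGene annotation, with no strand, multi-mapping or overlap option set. STAR, SAMtools and Partek are named in the submitters' processing notes, without versions. Fragments on exons of several genes or aligned to several places were therefore not counted.

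Counts were filtered with filterByExpr, TMM-scaled and fitted by group over the 12 libraries with edgeR 4.0.16 (robust quasi-likelihood, R 4.3.3), with Benjamini-Hochberg adjustment over the 14901 genes tested. SE was taken as the change over the square root of F. RPKM used the deposited exon lengths. Totals of 26389453 to 43493475 make 3 counts 0.069 to 0.114 CPM. The script was tested on simulated data. Alternatives were DESeq2 size factors, total-count scaling, DESeq2 1.42.0, no filter, a replicate block, a keratinocyte covariate (log2 of the summed marker CPM) and leaving out each library. Members and lists were chosen with earlier results of these data known. All members are named, with up to 4 genes of each list with the smallest F test p and the 2 nearest patterns of each member called. Krt5, Krt6a, the genes of the gate, the other cell type markers, Fpr2, S100a8, the untested annexins and the list genes given without values were named beside that rule after their values were seen. A gene of the partner list is not reported here and was left out of that list's counts.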

Additional observations from a re-analysis of the deposited data

Results flagged for a closer look

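For 3 members the change against NW was not the same at all wound times, by a direct edgeR test between the times. Anxa6 was higher at 1.5 d than at 16 h by 1.44 on the log2 scale (adjusted p = 0.00651) and higher at 3 d than at 16 h by 1.65 (adjusted p = 0.000841). Anxa5 was higher at 1.5 d than at 16 h by 0.94 (edgeR adjusted p = 0.0338) and at 3 d than at 16 h by 0.96 (edgeR adjusted p = 0.013). Anxa7 had a log2 change of -0.88 at 3 d against 16 h (edgeR adjusted p = 0.0275). Groups of 3 are too small for a check of single libraries that lie apart.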

How the results depend on the processing

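Anxa6, Anxa8 at 1.5 d and 3 d and Anxa3 at 16 h and 3 d kept their calls under all alternatives run. The member values tallied here were the F tests, the changes against NW of all members but Anxa11, and the called changes between wound times. A call gained between wound times was therefore not counted. Outside left-out libraries, 226 of these values kept direction and side of the threshold, 16 lost a call, 7 gained one and 3 turned sign. With 1 library left out the numbers were 465, 29, 4 and 6. The sign turned for Anxa2 at 3 d against NW without the filter (0.0062) and with the keratinocyte covariate (0.17), and for Anxa7 at 16 h with the covariate (0.0072). Without 1 library, Anxa2 spanned -0.087 to 0.46 at 1.5 d and -0.15 to 0.24 at 3 d against NW, and Anxa6 -0.20 to 0.16 at 16 h. The cause was not tested.

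With the covariate, which moves with the groups, 2 members were called at 16 h, 2 at 1.5 d and 3 at 3 d against NW, 1 at 1.5 d against 16 h and 3 by the F test, and 2058, 741 and 578 genes against NW, 40 at 3 d against 1.5 d and 1898 by the F test. At 3 d against 1.5 d total-count scaling and no filter each called 51 genes. DESeq2 called 1192 at 1.5 d against 16 h, 200 at 3 d against 1.5 d and 2352 at 3 d against 16 h, where edgeR called 426, 21 and 1420. Total-count scaling moved the all-gene median by -0.17 at 3 d against 16 h and -0.11 at 3 d against NW. In CPM without length, 5 of 10 members kept their NW rank.

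Same-numbered libraries did not deviate together (r -0.172 to 0.168), nor did each correlate best with its own number, so the numbers were not taken to pair mice. A replicate block called 211 genes and 1 member at 1.5 d against 16 h and lost Anxa4 at 16 h (edgeR adjusted p = 0.0583), Anxa5 at 1.5 d against 16 h (0.0552) and Anxa7 at 3 d against 16 h (0.0622).

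Without 1 library, members called ranged from 1 to 4 at 16 h against NW, 1 to 2 at 1.5 d against 16 h and 1 to 3 at 3 d against 16 h. Genes called ranged from 2249 to 3773 at 16 h, 2392 to 3802 at 1.5 d and 1826 to 3269 at 3 d against NW, 147 to 433 at 1.5 d against 16 h, 2 to 29 at 3 d against 1.5 d and 726 to 1515 at 3 d against 16 h. Depth limits Anxa9 and Anxa13, and exons shared with other genes limit Anxa11.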
